A study of Mus musculus with 9 samples.

Results

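The genes described here encode 9 factors of nonsense-mediated mRNA decay, the surveillance pathway that degrades mRNAs with a premature stop codon: Upf1, Upf2, Upf3a, Upf3b, Smg1, Smg5, Smg6, Smg8 and Smg9. They were chosen by gene name, and each of the 9 names matched 1 row of the 54876 genes in the table. All 9 passed the filter on low values, which kept 12300 genes. Values came from MIN6, a beta cell line derived from a mouse insulinoma and labelled as C57BL/6. The cells were cultured for 24 h with arginine at 0.1 (low), 1 (standard) or 20 (high) times the standard concentration, with 3 libraries of total RNA per group. The groups share the cell line, the time and, apart from arginine, the medium, and differ in the labels only by arginine. The labels do not say whether replicates were separate cultures, and p-values therefore cover no more than the spread among these libraries, which may be technical.

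In this pathway the helicase UPF1 acts at a ribosome that has stopped too early. UPF2 links UPF1 to UPF3A or UPF3B, and these bind the exon junction complex that splicing leaves on the mRNA. The kinase SMG1, held in check by SMG8 and SMG9, phosphorylates UPF1. SMG6 then cuts the mRNA, while SMG5 recruits decapping and deadenylation enzymes. The pathway is known to be restrained when cells are stressed, to act on several stress-response mRNAs, and to act on mRNAs of some of its own factors.

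Reads in genes, rebuilt from the deposited FPKM, numbered 21550637 to 26300872 per library. FPKM are fragments per kilobase of gene length, scaled to a size for each library. The size behind the FPKM was 1.048 to 1.077 times these reads in low arginine. It was 0.962 to 1.016 times in standard and 0.969 to 0.994 times in high arginine. The part of this difference between groups in the results was not tested. The 9 genes had 303 (Upf2) to 5562 (Smg5) reads in a library. Of 8 beta cell markers 7 passed the filter, Ucn3 among them at only 4 to 47 reads in a library. Slc2a2, the glucose transporter GLUT2, had a mean of at most 0.0235 FPKM in any group. From standard to low arginine the mean of Pdx1 rose from 149.6 to 373.4 FPKM, Nkx6-1 from 66.25 to 189.6 and Mafa from 246.6 to 310.3. Ins1 fell from 1542 to 1065 FPKM and Ucn3 from 0.880 to 0.188, while Ins2 and Iapp overlapped between these groups. None of 5 acinar and ductal or 7 fibroblast, endothelial and immune markers passed, and their summed levels were at most 0.101 and 0.665 FPKM in any library. Of 7 markers of other islet cells 4 passed, and the summed level was 9060 to 11570 FPKM in low, 6325 to 7198 in standard and 6616 to 6805 in high arginine, mostly Sst, which encodes somatostatin. Between standard and low arginine the mean of Sst rose from 5790 to 9758 FPKM and that of Ppy from 48.0 to 55.4. Ttr went the other way, from 904 to 296 FPKM, as did Gcg, from 25.7 to 16.3. The part of these marker differences in the results below was not tested. In bulk RNA, fewer cells of a type and less RNA per cell cannot be told apart.

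The promoters of Upf3a and Upf3b are shown because these paralogs changed in opposite directions in low arginine. The windows run from 250 bases before to 50 after the start site, from RefSeq on GRCm38.p6, and all 9 genes had a window there. Upf3a lies at chr8:13785365-13785664 on the plus strand and Upf3b at chrX:37110273-37110572 on the minus strand. Both are printed in the direction of transcription, and capitals mark the CCAAT box (CCAAT), the GC box (GGGCGG) and the YY1 core (AAGATGGCG) on either strand.
Upf3a: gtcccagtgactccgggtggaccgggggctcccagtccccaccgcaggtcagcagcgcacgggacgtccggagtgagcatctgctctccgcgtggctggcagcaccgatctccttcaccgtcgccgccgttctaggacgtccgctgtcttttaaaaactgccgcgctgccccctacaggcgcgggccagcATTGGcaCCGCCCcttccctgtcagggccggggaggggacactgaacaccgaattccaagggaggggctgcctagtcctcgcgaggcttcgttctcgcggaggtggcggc
Upf3b: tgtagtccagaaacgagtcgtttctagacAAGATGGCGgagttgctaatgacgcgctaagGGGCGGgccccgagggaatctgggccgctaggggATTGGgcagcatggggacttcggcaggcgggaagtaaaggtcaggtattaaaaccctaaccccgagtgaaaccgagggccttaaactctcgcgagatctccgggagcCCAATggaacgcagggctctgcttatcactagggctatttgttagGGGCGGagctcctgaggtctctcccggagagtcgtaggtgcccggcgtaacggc

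Both windows hold a CCAAT box and a GC box. CCAAT was found in the windows of 4 of the 9 genes (Upf3a, Upf3b, Smg1 and Smg8) and in 37.4% of all 32851 promoters of this length. GGGCGG was in 7 of 9 (not Smg5 or Smg8), against 35.7% of all promoters, and its matches overlap one another in Upf2. Among the 9, AAGATGGCG, a YY1 core, was found in Upf3b alone (1.4% of all promoters). GCATGCGC, an NRF1 core whose matches on both strands overlap, was in Upf1 and Smg9 (2.7%), and CCGGAAG, an ETS core, in Smg8 (8.9%). The C/EBP-ATF response core TGATGNAA, the CRE TGACGTCA and the E-box CACGTG were in 0 of the 9 windows, against 4.0%, 1.8% and 7.2% of all promoters. These matches are letters in a window, not binding sites.

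The first comparison asked how 24 h of arginine deficiency changed the mRNAs of these factors. In low arginine 5 genes were higher and 1 lower than in standard arginine, each without overlap between groups. Upf3b rose 2.5-fold, Upf2 1.65-fold, Smg5 1.61-fold, Upf1 1.38-fold and Smg6 1.26-fold in mean FPKM, and Upf3a fell to 0.692 times its standard level. Smg1, Smg8 and Smg9, the kinase and its regulatory subunits, did not pass the test. The test was limma with a threshold of 0.05 on the p-value adjusted by Benjamini-Hochberg over all genes, and 62.2% of all tested genes passed it here, 30.3% higher and 31.9% lower. Groups did not overlap for 65.4% of tested genes, 32.0% higher and 33.4% lower. The 6 of 9 called factors are a share near this background. The median log2 change of the 9 was 0.30, beside 0.00 for all tested genes. All log2 changes are of FPKM + 1, which makes those of low genes too small.

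**Figure D1:**
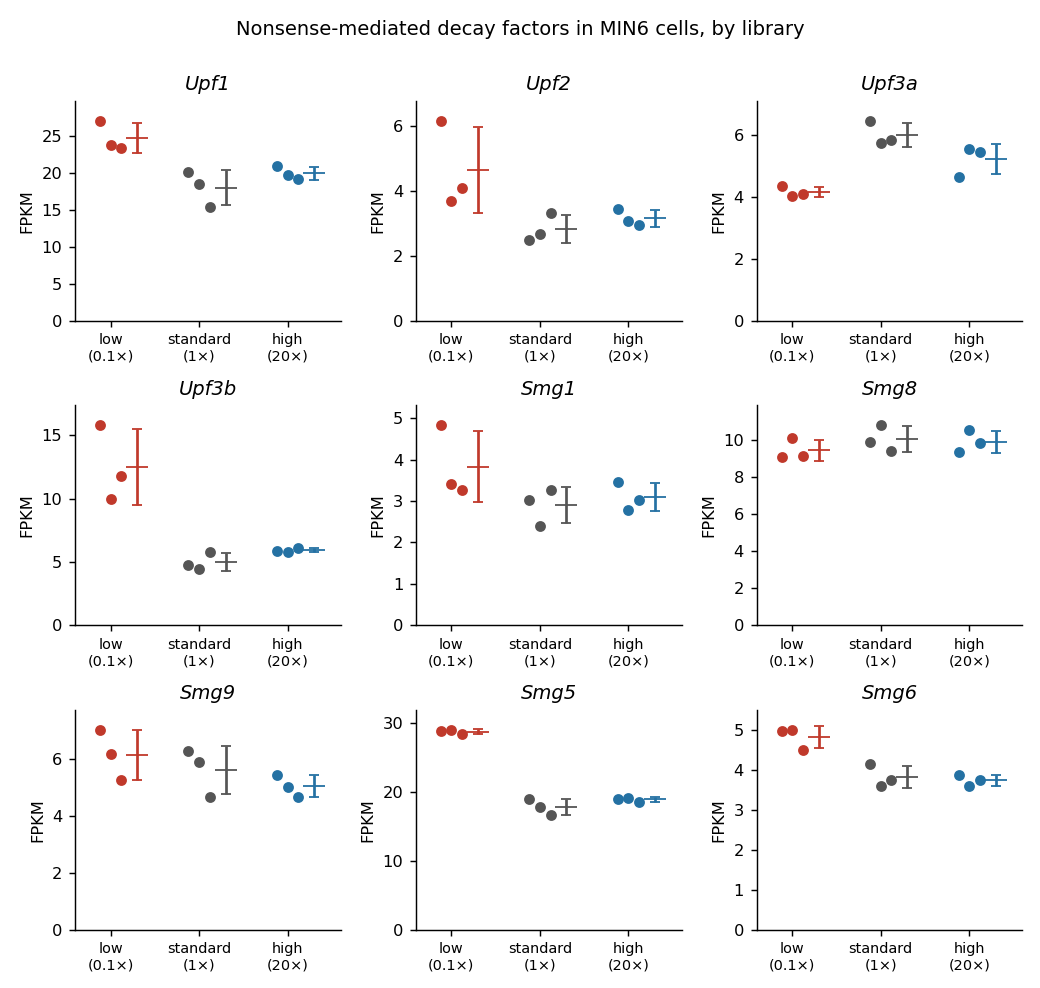
FPKM (vertical axes, from 0) of the 9 factors in each library of the low, standard and high arginine groups; points are the 3 libraries in replicate order and the bar beside them is the mean ± SD. Upf3b, Upf2, Upf1, Smg5 and Smg6 sit higher and Upf3a lower in all 3 low arginine libraries than in the standard ones, while Smg1, Smg8 and Smg9 overlap.

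Upf3b (chromosome X, 37091678 to 37110322, minus strand, GRCm38) was at 15.8, 9.94 and 11.8 FPKM in low, 4.79, 4.45 and 5.78 in standard and 5.88, 5.77 and 6.12 in high arginine. All low libraries were above all others, and the first low library was the highest. The log2 change in low arginine was 1.15 (SE 0.14, adjusted p 3.25e-05), larger than for 98.8% of tested genes. Its paralog Upf3a (chromosome 8, 13785615 to 13799193, plus strand) was at 4.34, 4.04 and 4.11 FPKM in low, 6.47, 5.74 and 5.84 in standard and 4.66, 5.56 and 5.46 in high arginine. Every standard library lay above every low and every high library, and the low libraries lay below the high ones. Upf3a fell by 0.44 (SE 0.07, adjusted p 0.000338) in low arginine.

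The order of the paralogs' FPKM differed between media. The ratio of their FPKM was 3.63, 2.46 and 2.88 in low arginine, 0.740, 0.775 and 0.990 in standard arginine and 1.26, 1.04 and 1.12 in high arginine. By FPKM, Upf3b was the lower of the pair in all 3 standard libraries and the higher in the other 6. This order depends on the gene length used, 5865 bases for Upf3a and 3999 for Upf3b. By rebuilt reads Upf3b was the lower in high arginine too, at 547, 531 and 588 reads against 636, 750 and 769. Differences of the log2 ratio between groups do not depend on gene length. The FPKM ratio is taken within a library, so it does not depend on how libraries are scaled. On the log2 scale it differed by 1.83 between low and standard, 0.46 between high and standard and -1.38 between high and low arginine. Each difference had an exact two-sided permutation p of 0.1, also when adjusted over the 3 comparisons, which is the smallest that 3 libraries against 3 allow, so none could pass 0.05.

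**Figure D2:**
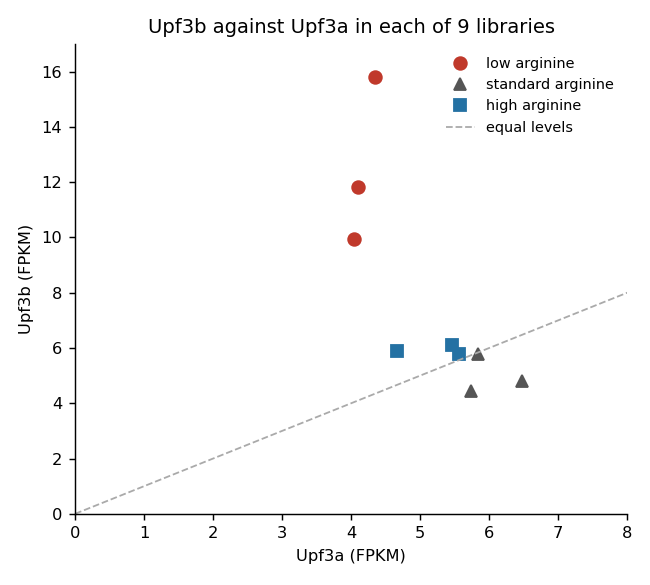
Upf3b (vertical axis, FPKM) against Upf3a (horizontal axis, FPKM) in each of the 9 libraries, with a dashed line of equal levels. Standard arginine libraries lie below the line, high arginine libraries just above it, and low arginine libraries far above it at ratios of 2.46 to 3.63.

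Upf1 encodes the central helicase (chromosome 8, 70331525 to 70353278). Its levels were 27.0, 23.7 and 23.4 FPKM in low, 20.1, 18.4 and 15.4 in standard and 20.9, 19.7 and 19.1 in high arginine. The low libraries were all above the rest, whereas standard and high libraries overlapped. It rose by 0.44 (SE 0.09, adjusted p 0.00164) in low arginine. Upf2, the adaptor (chromosome 2, 5951469 to 6056703), was at 6.16, 3.70 and 4.08 FPKM in low, 2.48, 2.67 and 3.31 in standard and 3.45, 3.06 and 2.94 in high arginine. One low library stood well above the other two, and all 3 were above the standard and high ones. Upf2 rose by 0.54 (SE 0.14, adjusted p 0.00684), and by 0.36 (adjusted p 0.0123) without low replicate 1; over all alternatives its adjusted p ran from 0.0016 to 0.0366.

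Smg5 was the most uniform within low arginine (chromosome 3, 88336260 to 88362338). It encodes the adaptor that recruits decay enzymes to phosphorylated UPF1. Levels were 28.8, 29.0 and 28.4 FPKM in low, 19.0, 17.8 and 16.6 in standard and 19.0, 19.2 and 18.5 in high arginine. The low libraries differed from each other by less than from any other library. Smg5 rose by 0.66 (SE 0.06, adjusted p 3.29e-06), the smallest adjusted p among the 9. Smg6, the endonuclease (chromosome 11, 74925823 to 75164448), was at 4.98, 5.01 and 4.51 FPKM in low, 4.15, 3.61 and 3.76 in standard and 3.89, 3.62 and 3.75 in high arginine. Its low libraries were above all others, while standard and high libraries overlapped. Smg6 rose by 0.27 (SE 0.07, adjusted p 0.00407) in low arginine.

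The kinase and its subunits gave no call in the main fit, which had no block on replicate number. Smg1 (chromosome 7, 118131308 to 118243670) was at 4.83, 3.41 and 3.26 FPKM in low, 3.03, 2.41 and 3.27 in standard and 3.46, 2.79 and 3.03 in high arginine. The third low library lay just below the third standard one, so the groups overlapped. Its log2 change in low arginine was 0.30 (SE 0.13, 95% interval 0.02 to 0.58, adjusted p 0.0604). That value sits near the threshold. Adjusted p was 0.0209 with voom weights and 0.229 without low replicate 1, the lowest and highest of 17 alternatives. Of these 5 passed, a block on replicate number among them (adjusted p 0.0241).

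Smg8 (chromosome 11, 87077732 to 87086774) was at 9.12, 10.1 and 9.14 FPKM in low, 9.89, 10.8 and 9.45 in standard and 9.35, 10.6 and 9.86 in high arginine. All 3 groups overlapped. Its log2 change in low arginine was -0.08 (95% interval -0.23 to 0.07, adjusted p 0.336). Smg9 (chromosome 7, 24399619 to 24422778) was at 7.02, 6.17 and 5.26 FPKM in low, 6.26, 5.90 and 4.66 in standard and 5.45, 5.01 and 4.67 in high arginine. These groups overlapped as well, with a log2 change of 0.11 (interval -0.13 to 0.36, adjusted p 0.387). With trends along GC content and gene length taken out it was 0.21 (adjusted p 0.0405), the only one of 18 alternatives that passed (adjusted p 0.0405 to 0.959).

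The second comparison asked what excess arginine did. None of the 9 genes passed in high against standard arginine, where 0.309% of all tested genes did (limma, Benjamini-Hochberg), 0.138% higher and 0.171% lower. Of all 12300 tested genes 1762 had an unadjusted p under 0.05. Among the 9 only Upf3a did, at a log2 change of -0.17 (SE 0.07, p 0.0346, adjusted p 0.306). It was also the 1 gene of 9 without overlap between these groups, against 18.5% of all tested genes, 10.4% higher and 8.14% lower. The median of the 9 was 0.07, beside 0.01 for all tested genes. With voom weights 0 of 9 passed too. The largest positive value was that of Upf3b, 0.21 (interval -0.09 to 0.51, adjusted p 0.507), and intervals for the other 7 ran from -0.37 (Smg9) to 0.44 (Upf2). Both comparisons use the same 3 standard libraries, so their values are not independent.

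High was then compared with low arginine, which tests the difference between both responses. Upf3b was lower by 0.94 (SE 0.14, adjusted p 0.000136), Smg5 by 0.58 (SE 0.06, adjusted p 8.78e-06), Upf2 by 0.42 (SE 0.14, adjusted p 0.0247), Upf1 by 0.30 (SE 0.09, adjusted p 0.0165) and Smg6 by 0.30 (SE 0.07, adjusted p 0.0024) in high arginine. Upf3a was higher by 0.27 (SE 0.07, adjusted p 0.00771). That is 6 of 9, against 61.5% of all tested genes, 32.3% higher and 29.2% lower. The same 6 did not overlap between groups, as did 68.4% of tested genes, 35.3% higher and 33.1% lower. The median of the 9 was -0.30, beside 0.01 for all tested genes. Smg1 (-0.23, adjusted p 0.141), Smg8 (0.06, adjusted p 0.451) and Smg9 (-0.24, adjusted p 0.0831) did not pass. Smg9 passed in 5 of 18 alternatives, which were TPM (-0.38, adjusted p 0.014), a block on replicate number (adjusted p 0.00642), GC content and length trends taken out (-0.30, adjusted p 0.00681), and fits without low replicate 3 (adjusted p 0.0283) or standard replicate 3 (0.0432); its highest adjusted p was 0.273. Upf1 and Upf2 lost the call without low replicate 1 (adjusted p 0.0634 and 0.0683) or high replicate 3 (0.0552 and 0.0716) and when genes of low level were not filtered out (0.0536 and 0.0926). Upf2 also lost it without high replicate 2 (0.0634) and with GC content and length trends taken out (0.0681), and Upf3a lost it in TPM (0.19, adjusted p 0.0763). Over all alternatives adjusted p ran from 0.000449 to 0.0634 for Upf1, 0.00878 to 0.0926 for Upf2 and 0.00227 to 0.0763 for Upf3a.

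**Figure D3:**
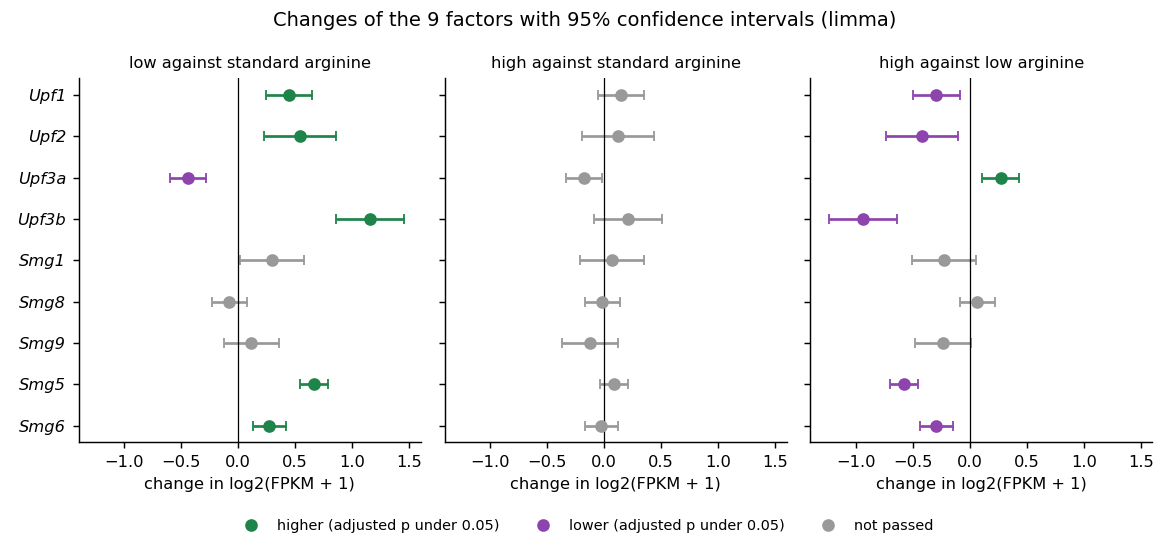
Change in log2(FPKM + 1) with its 95% interval (limma) for the 9 factors in the 3 comparisons; green and purple mark changes higher and lower at an adjusted p under 0.05, grey the rest. Low arginine separates Upf3b at 1.15 and Upf3a at -0.44, while all high against standard values lie between -0.17 and 0.21.

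Levels per length differed among the factors. In standard arginine the order was Upf1 (17.95 ± 2.37 FPKM, SD, n = 3), Smg5 (17.8 ± 1.19), Smg8 (10.1 ± 0.698), Upf3a (6.02 ± 0.397), Smg9 (5.61 ± 0.84), Upf3b (5.01 ± 0.693), Smg6 (3.84 ± 0.278), Smg1 (2.90 ± 0.445) and Upf2 (2.82 ± 0.438). Libraries of neighbours overlapped for Upf1 with Smg5, Upf3a with Smg9, Smg9 with Upf3b, and Smg1 with Upf2; the other neighbours were apart. In low arginine Smg5 (28.7 ± 0.305) came first, apart from Upf1 (24.7 ± 2.03), Upf3b stood at rank 3 (12.5 ± 2.99) in place of rank 6, and Upf3a at rank 8 (4.16 ± 0.161) in place of rank 4. In high arginine Upf3b stood at rank 4 (5.92 ± 0.178), above Upf3a (5.23 ± 0.49) and Smg9 (5.04 ± 0.392) and without overlap with either, and Upf2 stood above Smg1, with overlap; the other ranks were in the standard order.

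Within the low arginine group, Upf2, Upf3b and Smg1 were spread most widely. Low replicate 1 lay above its group mean by 0.37 for Upf2, 0.34 for Upf3b and 0.29 for Smg1 on the log2(FPKM + 1) scale, but by 0.00 for Smg5 and 0.04 for Smg6. Low replicate 2 deviated by -0.24, -0.28 and -0.12 for the same 3 genes. The rise of Upf3b was 0.98 (adjusted p 2.95e-05) without low replicate 1 and 1.29 (adjusted p 2e-05) without low replicate 2. Malat1, a nuclear long noncoding RNA was at 44.5, 13.2 and 25.8 FPKM in low, 25.3, 15.8 and 35.2 in standard and 27.0, 20.5 and 28.7 in high arginine. It was highest in low replicate 1 and, among standard libraries, in replicate 3, where Upf2, Upf3b and Smg1 were also highest. In high arginine it was highest in replicate 3 (deviation 0.18), where Upf2 (-0.07) and Smg1 (-0.02) were not. Neat1, another nuclear RNA, was at 15.1, 9.63 and 12.7 FPKM in low, 4.79, 6.02 and 5.62 in standard and 3.50, 2.53 and 3.54 in high arginine, so that its groups did not overlap and, among standard libraries, replicate 2 was highest. Both RNAs were looked up after these values were seen, and their part in the results was not tested.

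Upf3b (42.7%), Upf2 (43.5%) and Smg1 (44.9%) had the lowest GC content of the 9 transcripts, and Smg9 (60.3%), Upf1 (57.9%) and Smg5 (56.5%) the highest. Over all tested genes the fifth with the lowest GC content (up to 44.1%) had a median log2 change of 0.15 in low arginine. The fifth with the highest (from 55.7%) had one of -0.12. Deviations from the group mean correlated with GC content at r = 0.317, 0.303 and -0.516 in standard replicates 1, 2 and 3. This r ran from -0.108 to 0.055 in low and from -0.266 to 0.334 in high arginine. In standard replicate 3 Smg9, Upf1 and Smg5 deviated by -0.22, -0.20 and -0.09, and Upf3b, Upf2 and Smg1 by 0.18, 0.18 and 0.14. With both trends taken out, Upf3b changed by 1.02, Upf2 by 0.40, Upf1 by 0.53, Smg5 by 0.73 and Upf3a by -0.50, and all 5 still passed. Smg1 moved from 0.30 to 0.13 (adjusted p 0.157).

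**Figure D4:**
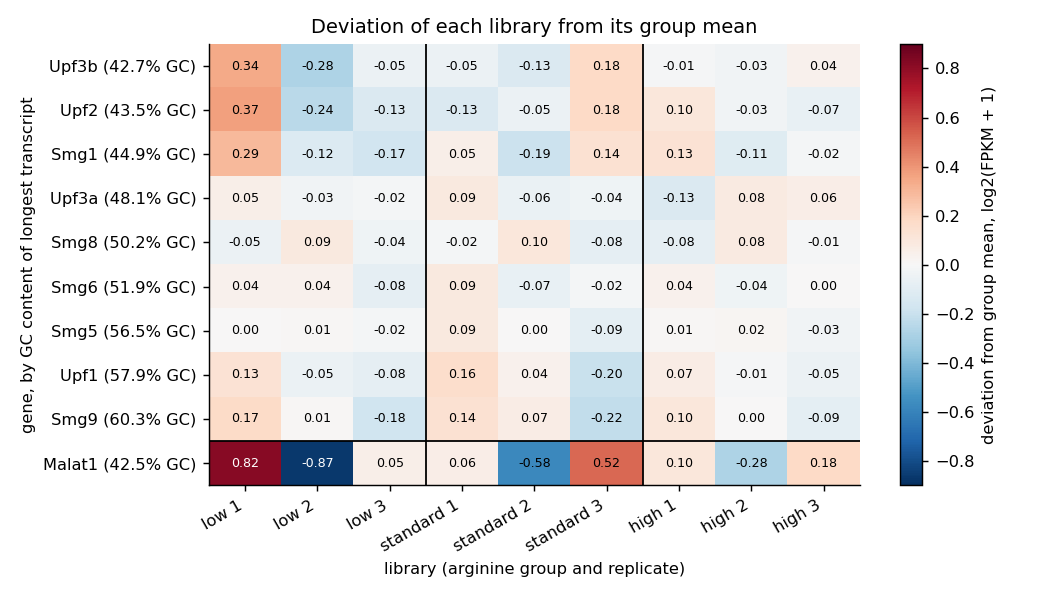
Deviation of each library from the mean of its arginine group on the log2(FPKM + 1) scale, with rows ordered by GC content and Malat1 below the line. Upf3b, Upf2 and Smg1 are highest in low replicate 1, at 0.34, 0.37 and 0.29, while Smg5 lies within 0.02 of its mean in all 3 low libraries.

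The table pools all isoforms of a gene. GENCODE M21 lists 1 transcript typed as nonsense-mediated decay each for Smg1, Smg5 and Smg6, and 5 retained-intron transcripts of 10 for Smg1, 5 of 9 for Smg5, 4 of 7 for Smg9 and 2 of 3 for Upf3a, but 0 of either type for Upf1, Upf2, Upf3b and Smg8. Which isoforms changed was not measured. Exons of other genes, on either strand, cover 1.47% of exon bases in Upf1 (Cers1 and Gdf1) and 2.87% in Smg6 (Srr and Gm12333), and 0% in the other 7. The strand setting of the count is not stated, so whether reads in these bases were told apart is not known.

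By Pearson correlation over the 9 libraries, the gene most like Smg5 was Herpud1 (r = 0.998), which encodes a protein of endoplasmic reticulum-associated degradation. Rsrc2 was most like Upf3b (r = 0.995), Ash1l, a histone methyltransferase gene, most like Smg1 (r = 0.987) and Farsa, which encodes a phenylalanyl-tRNA synthetase subunit, most like Upf1 (r = 0.981). For the remaining 5 factors the closest gene had an r of 0.927 (Smg8) to 0.983 (Smg6). These values describe 9 libraries in 3 media and carry no test.

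Of 5 other decay factors 2 rose and 2 fell in low arginine, with a median of -0.12. The shares over all tested genes were 30.3% higher and 31.9% lower. Pnrc2, a decapping adaptor, rose from 43.5 ± 5.42 to 74.2 ± 5.96 FPKM (SD, n = 3 each), a log2 change of 0.76 (SE 0.10). Ruvbl1, an ATPase gene, rose by 0.43 (SE 0.07), while its partner gene Ruvbl2 did not pass (-0.12, SE 0.07, adjusted p 0.155). Dhx34, a helicase that acts with SMG1 and UPF1, fell from 14.2 ± 1.45 to 6.36 ± 0.102 FPKM (-1.04, SE 0.07), and Nbas fell by 0.20 (SE 0.07, adjusted p 0.0192). The call of Nbas was lost in TPM (-0.09) and without low replicate 3 or standard replicate 1 or 2.

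Of 7 genes of translation termination and mRNA-bound proteins 3 rose and 2 fell in low arginine, with a median of 0.12. The background for this and the next 2 lists was 30.3% of all tested genes higher and 31.9% lower. Etf1, the release factor eRF1, rose by 0.60 (SE 0.07) and Ncbp2, a cap-binding protein, by 0.42 (SE 0.07), whereas its partner Ncbp1 fell by 0.32 (SE 0.06). Of 9 genes of the exon junction complex 3 rose and 3 fell (median 0.14), with Magoh at 0.44 (SE 0.09) and Rbm8a, which encodes its partner Y14, at -0.22 (SE 0.06). Rbm8a lost its call in TPM (-0.10) and under quantile normalization (-0.13). Of 9 tested decapping genes 5 rose and 0 fell, led by Lsm14a at 0.72 (SE 0.06) and Lsm1 at 0.41 (SE 0.07), while 4 did not pass (median 0.21). In high against standard arginine 0 of the 30 tested genes of these 4 lists passed (limma), against 0.309% of all tested genes. An unadjusted p under 0.05 was found for 6 of the 30, and for 1762 of all 12300 tested genes.

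**Figure D5:**
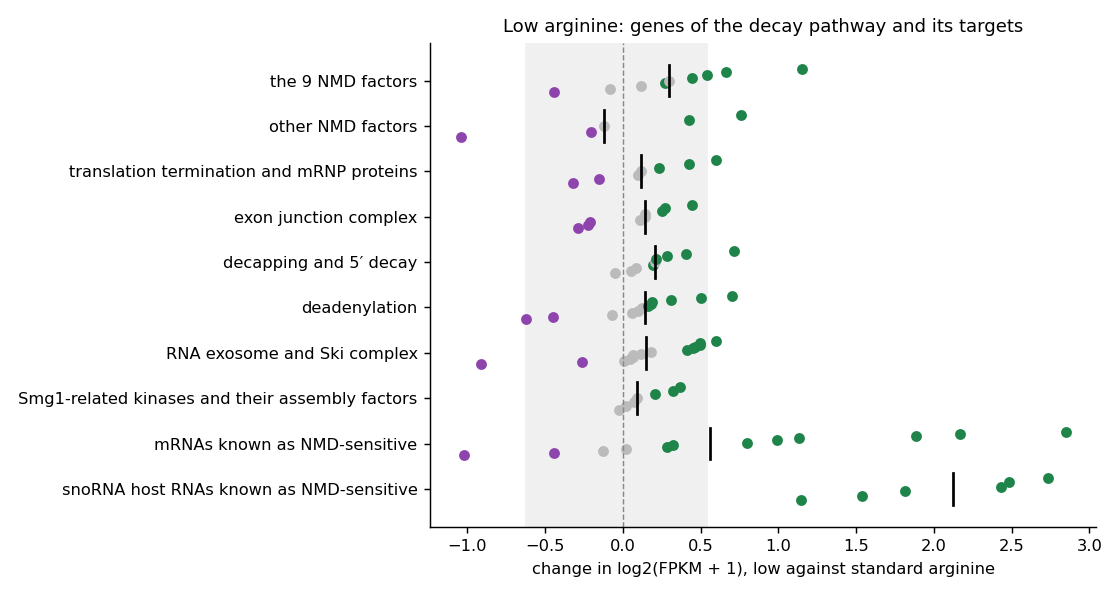
Change in log2(FPKM + 1) in low against standard arginine for each tested gene of the lists, which were chosen with earlier results of these data known. Green and purple mark genes higher and lower at an adjusted p under 0.05 (limma), grey the rest, black bars the list medians. The grey band spans the 10th to 90th percentile of all tested genes (-0.62 to 0.54) and the dashed line their median. Upf3b at 1.15 and Smg5 at 0.66 lie above the band, as do all 6 snoRNA host RNAs, and Upf2 at 0.544 lies at its upper edge.

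RNAs known as targets of the pathway moved both ways in low arginine. Of 12 such mRNAs 8 rose and 2 fell, with a median of 0.56. Of all tested genes 30.3% rose and 31.9% fell, with a median of 0.00. Atf3 rose from 6.41 ± 0.663 to 52.3 ± 3.96 FPKM, Ddit3, which encodes CHOP, from 30.6 ± 3.58 to 141 ± 2.71, Gadd45b, a growth arrest gene, from 8.22 ± 0.719 to 33.1 ± 4.4 and Slc7a11, the cystine transporter gene, from 0.844 ± 0.149 to 3.06 ± 0.584. Map3k14, Ern1, Nat9 and Gadd45a also rose, at log2 changes of 0.99, 0.80, 0.29 and 0.33, and Gadd45a was not called with all genes kept in the test or without low replicate 2 or 3 or standard replicate 1 or 2. Tbl2 fell from 21.3 ± 1.74 to 9.99 ± 0.295 FPKM (-1.02, SE 0.07) and Cdkn1a, the p21 gene, by 0.44 (SE 0.07). Atf4 (-0.13, adjusted p 0.0783; called higher under quantile normalization, 0.15, but lower without standard replicate 3, -0.17) and Upp1 (0.02, adjusted p 0.832) did not pass. Several of these mRNAs are also induced by transcription in stressed cells, and RNA levels do not separate synthesis from decay. All 6 noncoding host RNAs of small nucleolar RNAs known as targets rose, with a median of 2.12. Snhg12 was at 2.73 (SE 0.06) and Gas5 at 1.82 (SE 0.08). For the host RNAs too, levels do not separate synthesis from decay. Both lists were chosen with earlier results of these data known, so their counts are a description and no test of the pathway. In high against standard arginine 0 of these 18 RNAs passed in limma, against 0.309% of all tested genes. An unadjusted p under 0.05 was found for 2 of the 18, and for 1762 of all 12300 tested genes. Snhg12 was near the threshold there (0.31, adjusted p 0.0618) and passed in 4 alternatives, among them the filter on a mean of at least 5 FPKM (0.0456), TPM (0.0468) and GC content and length trends taken out (0.0144).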

How the data were processed

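Transcript levels were measured in 9 libraries of MIN6 cells, 3 each in low, standard and high arginine. The deposited values are FPKM per gene, with the gene length used, per the file headers. Libraries came from total RNA with a directional kit, per the labels' protocols. CASAVA 1.8, HISAT2 2.0.5 and featureCounts 1.5.0-p3 are named in the submitters' processing notes, as is the build mm9; 98.33% of the 54409 gene IDs also found in GENCODE M21 have the same start and end as in its GRCm38 annotation, so coordinates are those of GRCm38. For strand, the counting options are not stated in the sources used here.

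FPKM times gene length gave whole reads, to within 0.01, in 100% of nonzero values the authors deposited. Rebuilt reads served only for depth, replicate comparison, voom weights and the order of Upf3a and Upf3b by reads. Replicate pairs differed beyond sampling noise (chi-square per degree of freedom 3.49 to 18.2). Genes with at least 1 FPKM in at least 3 libraries were put on the scale log2(FPKM + 1) and tested with limma 3.58.1 (R 4.3.3), in 1 fit of all 9 libraries by group, with 6 residual degrees of freedom and a variance prior that followed mean expression. P-values are two-sided and Benjamini-Hochberg adjusted over 12300 genes, with a threshold of 0.05. The procedure was tested on simulated data. Members and gene lists were chosen with earlier results of these data known. All 9 members were named whatever their result; from other lists, up to 4 genes with the smallest p in low arginine, the other decay factors and all NMD-sensitive mRNAs. Some genes of these lists are not reported here, and counts and medians are over those that are. Ddit3 has 2 rows, of which the expressed one was used. Promoters were searched for 8 motifs. Results were recomputed under 17 other settings of pseudocount, filter, scaling, libraries fitted, weights, replicate block and libraries left out. A fit with trends along GC content and length taken out was added after seeing the data. GC content was that of the longest GENCODE transcript.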

Additional observations from a re-analysis of the deposited data

How the results depend on the processing

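In low against standard arginine the 6 called factors kept direction and call under every alternative that tested them; with a mean of at least 5 FPKM, Upf2, Smg1 and Smg6 were not tested, so 3 factors and 2328 of all genes rose. In high against low arginine, 3 factors were lower with all genes kept and 3 with that mean filter, where 2190 of all genes were lower, and in TPM 0 factors were higher. Leaving out 1 library gave 3 to 6 factors lower in high against low arginine; the count was 3 without low replicate 1 or high replicate 3. In high against standard arginine 0 factors passed under any alternative, while the all-gene counts of 17 higher and 21 lower became 4 and 2 without a filter, 0 and 0 in the 2 groups alone (1669 at an unadjusted p under 0.05), 40 and 34 with voom weights, and 159 and 88 with trends along GC content and length taken out. With the mean filter 26 were higher. Leaving out 1 library gave 0 to 26 higher and 0 to 35 lower. Both were 0 when standard replicate 2 or high replicate 3 was dropped. Dropping high replicate 2 gave 1 higher and 0 lower, standard replicate 3 gave 26 higher and 35 lower, and low replicate 2, low replicate 3, standard replicate 1 or high replicate 1 gave 4 to 11 in either direction. The cause was not tested. TPM shifted the median of all genes by 0.115 in low and to -0.104 in high against low arginine, and the higher share of calls from 48.7% to 61.6% and from 52.5% to 39.5%. Atf4 turned to 0.15 in low and -0.20 in high against low arginine under quantile normalization.

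With a replicate block 46 genes were higher and 42 lower in high against standard arginine, and 6 factors rose in low arginine, Smg1 included, while 6 were lower in high against low arginine, Smg9 included; the block changed no other factor's call. Atf4 was called lower in low arginine (-0.13, adjusted p 0.0146) and Snhg12 higher in high against standard arginine (0.31, adjusted p 0.0494) with the block. The main fit had no block, as the labels name no factor but arginine and do not say whether equal numbers pair libraries. Yet 6 of 9 same-number pairs had a correlation of deviations over 0.1, among them all 3 of low with high arginine (0.153 to 0.243). For 8 of 9 libraries the best match in other groups had their own number. Libraries of equal number may thus share a part of their spread, which the main fit leaves out. The 9 factors had at least 303 reads in every library; whether depth or the number of libraries limits their precision was not tested.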

Other observations

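Enzymes that shorten and degrade mRNA from its tail moved both ways in low arginine. Of 12 deadenylation genes 6 rose and 2 fell, together a share near the 62.2% of all tested genes that passed. By direction, 30.3% of all tested genes rose and 31.9% fell. Pan2 rose from 1.01 ± 0.0117 to 2.27 ± 0.0449 FPKM (SD, n = 3 each; log2 change 0.70, SE 0.07) and Cnot2, a scaffold subunit of the CCR4-NOT complex, by 0.50 (SE 0.07). The 2 that fell were Cnot7, from 10.3 ± 0.748 to 6.32 ± 0.165 FPKM (-0.62, SE 0.06), and Cnot6, at -0.45 (SE 0.08). Of 14 tested genes of the RNA exosome and the Ski complex 6 rose and 2 fell, against the same background. Among exosome genes that rose, Exosc1 was at 0.60 (SE 0.08), Exosc7 at 0.50 (SE 0.07) and Exosc10, a nuclease, at 0.45 (SE 0.05). Skiv2l, the Ski complex helicase, fell from 20.5 ± 1.26 to 10.4 ± 0.178 FPKM (-0.91, SE 0.06).

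Among relatives of the kinase SMG1 and their assembly factors 3 of 7 tested genes rose and 0 fell in low arginine. Over all tested genes 30.3% rose and 31.9% fell. Tti2 and Telo2, which help assemble this kinase family, rose by 0.37 (SE 0.06) and 0.20 (SE 0.06). Prkdc, a DNA repair kinase, was at 0.32 (SE 0.12, adjusted p 0.0372), but its call was lost without low replicate 1 (0.19, adjusted p 0.14) and in 6 other alternatives. Mtor did not pass (0.09, SE 0.06, adjusted p 0.233), although in TPM it did (0.22). In high against standard arginine 0 of the 33 tested genes of these 3 lists passed in limma, against 0.309% of all tested genes. An unadjusted p under 0.05 was found for 1 of the 33, and for 1762 of all 12300 tested genes.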
